A study of Homo sapiens with 10 samples.

Results

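Where the coactivator MAML3 and the nuclear receptor RARα sat on DNA was examined at the genes of the Mastermind family (MAML1, MAML2 and MAML3), at RBPJ and at the Notch receptor genes NOTCH1 and NOTCH2. The members were taken as all listed ChIP-seq peaks that touched 1 of 6 windows named for these genes on the hg19 build. The windows held 41 of the 26482 peaks in the 8 lists. They ran on chromosome 5 from 179.11 to 179.28 Mb (MAML1), on chromosome 11 from 95.66 to 96.13 Mb (MAML2), on chromosome 4 from 140.58 to 141.13 Mb (MAML3) and from 26.10 to 26.49 Mb (RBPJ), on chromosome 9 from 139.34 to 139.49 Mb (NOTCH1), and on chromosome 1 from 120.40 to 120.66 Mb (NOTCH2).

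The cells were SK-N-SH, an established human neuroblastoma line, labelled as control cells in every sample. For 24 hours their medium held charcoal-stripped serum, which is depleted of retinoids and steroids, and they were then given 1 µM retinoic acid (RA) or vehicle (UT). How long RA was given is not stated in the labels. Each of 4 groups had 2 libraries, namely MAML3 RA, MAML3 UT, RARα RA and RARα UT, and 2 input samples were not analysed here. No label says that the replicates are separate cultures, so any p-value measures the spread between these libraries, which may be technical.

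In the canonical Notch pathway a ligand on a neighbouring cell triggers cleavage of the receptor, and the freed intracellular domain enters the nucleus. There it joins the DNA-binding protein RBPJ, and the pair recruits a Mastermind-like protein (MAML1, MAML2 or MAML3), which brings in histone acetyltransferases and switches target genes on. RBPJ without the Notch domain is known to hold corepressors at the same sites. RARα binds DNA as a partner of RXR and is switched on by retinoic acid. Listed peaks near these genes thus show where the coactivator and the receptor were found on the genes of the coactivator's own pathway.

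The lists differed in length before any gene was considered. The MAML3 lists held 7532 and 6230 peaks with RA and 2222 and 6759 in UT, and the RARα lists held 1103 and 1064 with RA and 1321 and 251 in UT. The sequencing depth behind the lists is not known, so a site absent from a short list is not shown to be unbound. MAML3 UT replicate 1 and RARα UT replicate 2 were the short lists of their groups. By tags in the list names, both MAML3 UT lists may come from a single library, and the list of RARα UT replicate 2 is tagged as merged. No label explains either tag. Each peak carries a score from the authors, used here only as a percentile. A percentile is the share of the same list with a score below that of the peak, with tied scores (its own included) at their mid rank. It also depends on how many weak peaks the list holds, so lists of unlike length are not on a common scale. For each antibody, peaks sharing 1 bp or more across its 4 lists counted as a single site.

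The 6 windows fell into those with several peaks and those with none. MAML3 held peaks in 7 of the 8 lists and NOTCH2 in 6, MAML2 held a single peak in 1 list, and MAML1, RBPJ and NOTCH1 held none in any list. The merged MAML3 sites numbered 16, of which 11 lay in the MAML3 window, 4 in the NOTCH2 window and 1 in the MAML2 window. The merged RARα sites numbered 5, with 4 in the MAML3 window and 1 in the NOTCH2 window. A stretch without peaks is common in these data. The listed range of the genome was cut into consecutive stretches as long as each window. No site of either antibody lay in 68.1% of stretches as long as the MAML1 window, 48.5% for RBPJ and 70.5% for NOTCH1. Here and below, the stretches were not limited to those that hold a gene. They include long spans without peaks, as above the NOTCH2 window, where the nearest peak of any list was 21936 kb away.

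**Figure D1:**
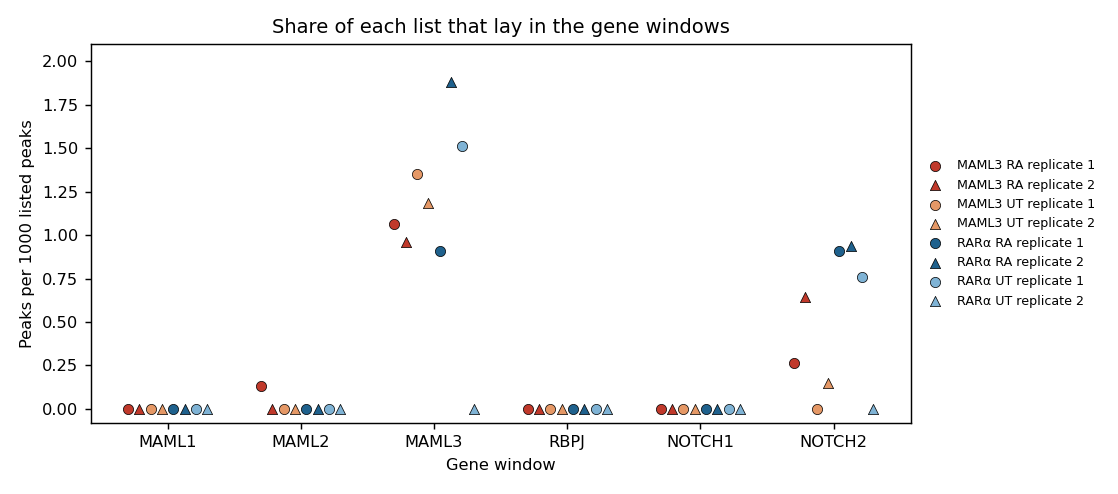
Peaks in each gene window per 1000 peaks of the same list (vertical axis), for the 6 windows (horizontal axis). Each point is 1 library, coloured by antibody and treatment, with circles for replicate 1 and triangles for replicate 2. In the MAML3 window 7 of the 8 libraries sit between 0.907 and 1.88 and RARα UT replicate 2 is at 0. In MAML1, RBPJ and NOTCH1 all points are at 0.

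MAML3, which encodes the immunoprecipitated coactivator itself, was the window with the most MAML3 sites. The MAML3 lists held 8 and 6 peaks there with RA and 3 and 8 in UT, and the 2 treatments overlapped. Of 5328 consecutive stretches of 550 kb, 1.67% held at least as many MAML3 sites as these 11, and the median stretch held 1. Peaks lay in the window at 5.67 and 5.14 times the density of their whole list with RA, and at 7.21 and 6.32 times in UT. The MAML3 antibody therefore had peaks in the window of its own gene in each of its 4 lists, in both treatments. Neighbouring genes bear on what the window holds: RefSeq (GRCh38.p14, used here for names only) places MGST2, a glutathione S-transferase family enzyme of leukotriene synthesis, in overlap with MAML3.

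Only the strongest of these sites were shared by all 4 MAML3 lists. The site at chr4:140863399-140863961 ranked at percentiles 93.0 and 87.9 with RA and 55.2 and 88.8 in UT. By percentile it was high in 3 lists and near the middle in MAML3 UT replicate 1, the shortest MAML3 list. The percentiles of the treatments overlapped. The site at chr4:140700712-140701249 ranked at percentiles 75.5 and 81.8 with RA and 49.6 and 89.2 in UT. By percentile MAML3 UT replicate 2 was here the highest of the 4 lists. MAML3 UT replicate 1, the shortest of them, was the lowest and listed the site as a pair of adjoining peaks. Among all 10251 MAML3 sites, 16.8% were in all 4 lists, and 2 of the 16 sites in the windows (12.5%) were.

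A further 3 sites of the MAML3 window were listed in every MAML3 list except UT replicate 1, the shortest. The site at chr4:140656262-140656649 ranked at percentiles 64.7 and 30.3 with RA and 80.0 in UT replicate 2. The site at chr4:140697200-140697711, which lay 3000 bp from a site in all 4 lists, ranked at 67.7 and 56.2 with RA and 54.2 in UT replicate 2. The site at chr4:140778200-140778649 was weak in all 3, at 15.8 and 36.6 with RA and 11.3 in UT replicate 2. In none of these 3 were both RA lists above UT replicate 2 by more than the difference between the RA lists themselves.

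The remaining sites of the window were low in their lists and were not shared by both replicates of a group. The site at chr4:140770549-140770798 was in RA replicate 1 (percentile 16.5) and UT replicate 2 (30.1). Single lists held the other 5, with RA replicate 1 holding chr4:140857212-140857411 (5.08) and chr4:140953212-140953561 (3.50), RA replicate 2 holding chr4:140763050-140763349 (25.6), and UT replicate 2 holding chr4:140717249-140717448 (8.84) and chr4:140787899-140788148 (41.1). Over all windows 8 of 16 MAML3 sites (50%) were in 1 list, against 37.2% of all MAML3 sites.

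**Figure D2:**
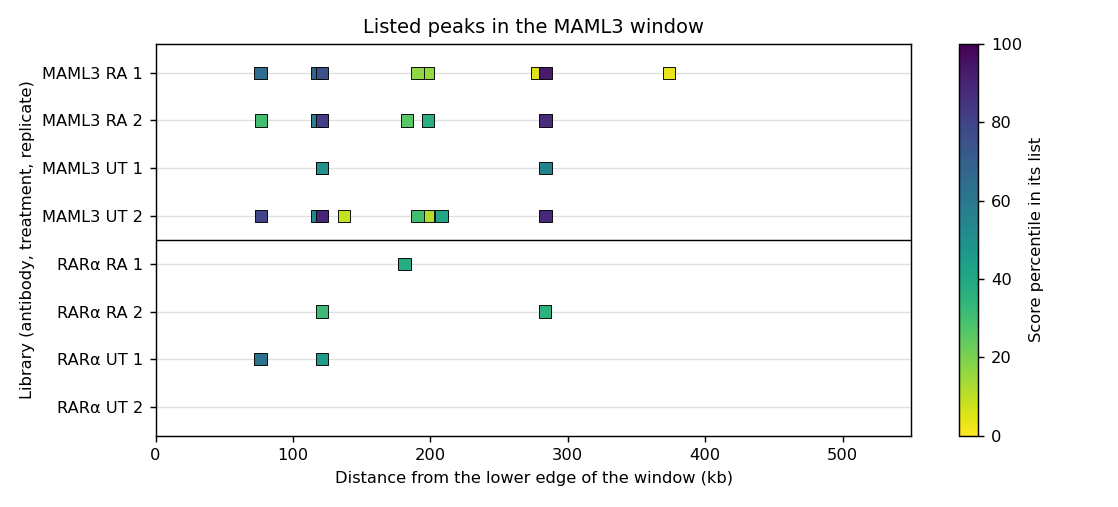
Listed peaks in the MAML3 window, by distance from the window's lower edge in kb (horizontal axis) and by library (rows, MAML3 above the line and RARα below). Each square is the centre of 1 peak, coloured by its score percentile in its own list. The columns of squares at 121 and 284 kb are present in all 4 MAML3 rows, and the last square is at 373 kb.

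All peaks lay away from the upper edge of the window. MAML3 lies on the minus strand in RefSeq, so its start is toward the upper coordinates. The uppermost peak had its centre 177 kb below the upper edge, and the sites in all 4 lists lay 266 and 429 kb below it. An annotation of the hg19 build was not used here, so the exact distance to the start, and whether a peak is in an exon or an intron, were not determined. The MAML3 promoter is shown because no listed peak was found toward that end of the window. These are the 250 bases before the RefSeq start (GRCh38.p14, minus strand), with a GC content of 72.4%.
MAML3 promoter: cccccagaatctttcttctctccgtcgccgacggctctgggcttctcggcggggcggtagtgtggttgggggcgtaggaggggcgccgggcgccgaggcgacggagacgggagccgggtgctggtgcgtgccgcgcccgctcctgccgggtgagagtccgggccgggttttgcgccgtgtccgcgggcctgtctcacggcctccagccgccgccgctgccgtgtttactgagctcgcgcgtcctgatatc
They hold neither GTGGGAA, the core bound by RBPJ, nor AGGTCA, the half-site bound by retinoic acid receptors, on either strand. Over 35116 RefSeq promoters, the same 250 bases held GTGGGAA in 5.43% and AGGTCA in 12.1%.

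Between treatments, no site of listed peaks in the MAML3 window was gained or lost. A site was gained when both RA lists and neither UT list of the antibody held it, as were 9.37% of all MAML3 sites. A site was lost in the opposite case, as were 0.683%. In MAML3 RA replicate 1 the peak numbers skip from 5134 to 5136, between chr4:140778561 and chr4:140857212. In MAML3 RA replicate 2 they skip from 4313 to 4315, between chr4:140778649 and chr4:140863450. Neither MAML3 UT list skips a number between its peaks in the window. What lay at the skipped numbers is not known, so whether a site was gained there cannot be told from these lists. Peaks in the window averaged 7.0 ± 1.41 with RA and 5.5 ± 3.54 in UT (SD, n = 2 each). Per 1000 listed peaks the values were 1.06 and 0.963 with RA and 1.35 and 1.18 in UT. On this scale both RA lists were below both UT lists, as in 11.5% of the 3153 stretches of this length with a MAML3 peak, whereas the number of peaks overlapped between treatments. With 2 libraries against 2, an exact two-sided permutation p cannot fall below 0.333, so RA and UT were not tested here or in any other window.

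RARα peaks in the MAML3 window were few, and 3 of the 4 RARα sites lay on a MAML3 site, as 84.4% of all RARα sites did. The RARα lists held 1 and 2 peaks with RA and 2 and 0 in UT, merged into 4 sites, and 1.31% of stretches of 550 kb held at least as many. The RARα site at chr4:140700750-140701078 was the only one in more than 1 list, with percentiles of 31.7 in RA replicate 2 and 45.1 in UT replicate 1, and it lay on a MAML3 site of all 4 lists. RARα RA replicate 2 alone (35.6) held chr4:140863463-140863771, on the other MAML3 site of all 4 lists. RARα UT replicate 1 alone (62.4) held chr4:140656280-140656599, on a MAML3 site of 3 lists. The site of RARα RA replicate 1, chr4:140761100-140761299 (38.3), lay 1750 bp from the nearest MAML3 site and on none. No RARα site here was gained or lost, against 5.42% gained and 0.472% lost among all RARα sites. Of the 4 sites 3 were in 1 list and none in all 4 RARα lists, against 56.0% and 6.75% of all RARα sites.

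The MAML3 antibody and the RARα antibody were compared at the MAML3 window over all 8 libraries. The 2 MAML3 UT lists, which may come from a single library, were counted as separate. In peaks per 1000 listed, the MAML3 lists averaged 1.14 ± 0.167 and the RARα lists 1.08 ± 0.821 (SD, n = 4 each). The difference of 0.0647 was far smaller than the spread between RARα lists, whose values were 0.907 and 1.88 with RA and 1.51 and 0 in UT (exact permutation test, two-sided, p = 0.914). The sign of this difference rested on single libraries. Without MAML3 UT replicate 1 it was -0.00547, and without RARα UT replicate 2, the list of 251 peaks, it was -0.294 (exact permutation test, p = 1.0 and 0.343). With all lists cut to 1064 peaks by score and RARα UT replicate 2 left out, a comparison chosen after the data were seen, the MAML3 lists held 1 and 1 peaks with RA and 1 and 2 in UT, and the RARα lists held 1 and 2 with RA and 2 in UT (exact permutation test, p = 0.743). Cut to 251 peaks, none of the 8 lists held a peak in the window. As numbers of peaks, not divided by list length, the lists held 6.25 ± 2.36 with the MAML3 antibody and 1.25 ± 0.957 with RARα (SD, n = 4 each). Every MAML3 list was longer than every RARα list, so these numbers do not compare the antibodies.

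NOTCH2, a Notch receptor gene, was the window in which each RA list held more MAML3 peaks than either UT list. The MAML3 lists held 2 and 4 peaks there with RA and 0 and 1 in UT, an average of 3.0 ± 1.41 with RA and 0.5 ± 0.707 in UT (SD, n = 2 each). Per 1000 listed peaks these were 0.266 and 0.642 with RA and 0 and 0.148 in UT. Both RA lists were thus above both UT lists, as they were in 16.9% of the 4516 stretches of 260 kb with a MAML3 peak. The 4 MAML3 sites of the window were matched or exceeded in 6.91% of all stretches of that length.

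The leading pair of sites lay close together near the lower edge of the NOTCH2 window. The site at chr1:120415900-120416449 ranked at percentiles 94.6 and 97.6 in the RA lists and 55.0 in UT replicate 2, and UT replicate 1 did not list it. Its centre was 16.2 kb inside the window. The site at chr1:120412600-120413049, 2850 bp further down, was in both RA lists at percentiles 73.5 and 81.7 and in neither UT list. Among listed peaks it was the only gained MAML3 site of the 6 windows, 1 of 16 (6.25%) against 9.37% of all MAML3 sites. Some peak numbers are not listed between the peaks that flank this window. MAML3 UT replicate 1 lacked 3 and UT replicate 2 lacked 1, against 1 and 0 in RA replicates 1 and 2. Where the absent peaks lay is not known. No MAML3 site of the windows was lost.

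These calls depended on the libraries that entered them. With the 4 MAML3 lists shortened to equal length, both sites of the pair in the NOTCH2 window were gained, as were 7.99% of all 3619 MAML3 sites of those lists. Over the 6 windows 5 sites were gained without MAML3 UT replicate 2, 4 without MAML3 RA replicate 1 and 4 without MAML3 RA replicate 2. In each case a single list stood for a treatment. Without UT replicate 2 that list was the short one of 2222 peaks. Without MAML3 UT replicate 1 a single list also stood for UT. In that case 1 site was gained, 2 were lost and 6 were in all remaining MAML3 lists. Shares of all MAML3 sites with a library left out are not given here. These counts therefore show only that the calls moved, not how the windows compare with other sites.

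The remaining NOTCH2 sites were in MAML3 RA replicate 2 alone. They lay at chr1:120525000-120525399 (percentile 57.4) and chr1:120528700-120528999 (20.9), 3300 bp apart and near the middle of the window. A gap of 108550 bp parted them from the leading pair. NOTCH2 lies on the minus strand in RefSeq, so the leading pair lies toward the end of the window that is farther from the gene's start. The next coding genes on that side are ADAM30, a membrane metalloprotease gene, and REG4. With the window narrowed by 50 kb at each side the leading pair lay outside it. Whether the pair is inside the NOTCH2 transcript, or nearer to ADAM30 or REG4, was not determined, so it is named here by the window only.

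**Figure D3:**
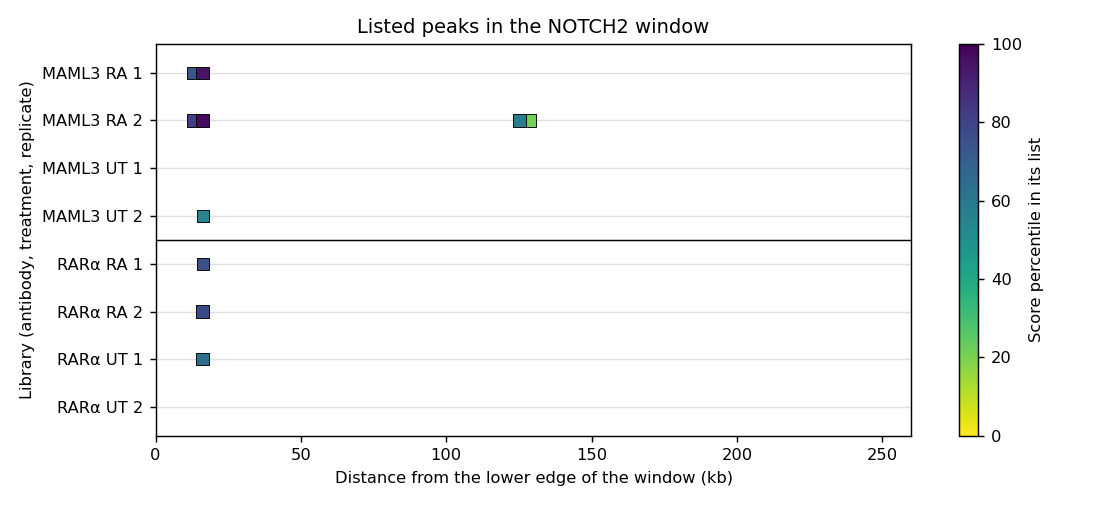
Listed peaks in the NOTCH2 window, by distance from the window's lower edge in kb (horizontal axis) and by library (rows, MAML3 above the line and RARα below). Each square is the centre of 1 peak, coloured by its score percentile in its own list. The pair at 12.8 and 16.2 kb is in both MAML3 RA rows, and the upper member alone is in MAML3 UT replicate 2 and in 3 of the 4 RARα rows.

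RARα was listed at the stronger member of the pair in the NOTCH2 window. Its site at chr1:120415945-120416444 ranked at percentiles 76.0 and 78.0 in the RARα RA lists and 63.9 in RARα UT replicate 1, and RARα UT replicate 2 did not list it. Of stretches of 260 kb, 13.2% held at least 1 RARα site. Both RA lists ranked it above the UT list that held it, and the remaining UT list had only 251 peaks, so whether occupancy differed cannot be told from these lists. The gained MAML3 site next to it was 2895 bp from the nearest RARα site. Over all windows 4 of 16 MAML3 sites (25.0%, 95% Wilson interval 10.2 to 49.5, counting error only) overlapped a RARα site, against 17.0% of all MAML3 sites. Conversely 4 of 5 RARα sites (80.0%, interval 37.6 to 96.4) overlapped a MAML3 site, against 84.4% of all RARα sites. Both intervals treat sites as independent draws, although 11 of the 16 MAML3 sites lay in the MAML3 window.

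**Figure D4:**
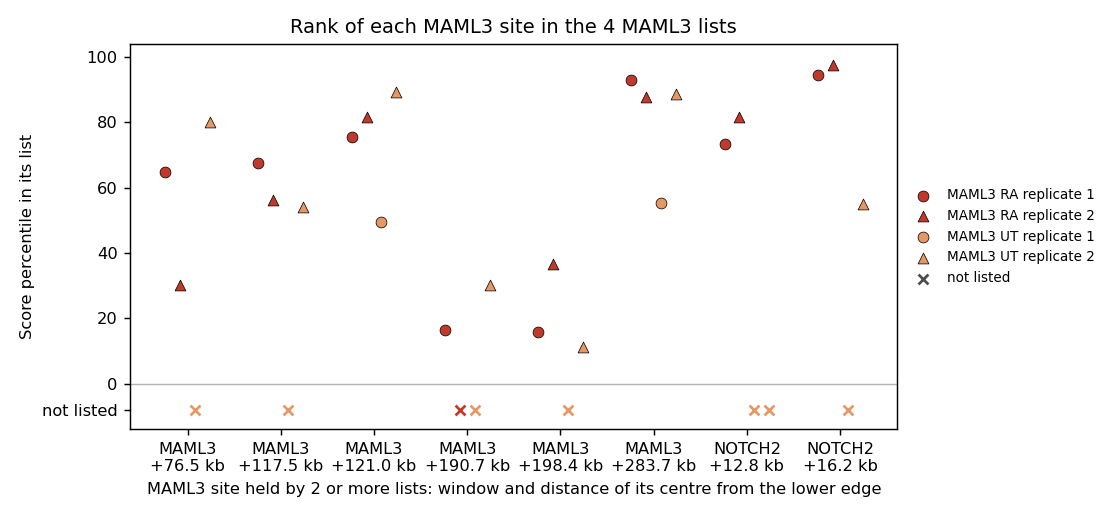
Score percentile (vertical axis) of the 8 MAML3 sites of the windows that were held by 2 or more MAML3 lists, named by window and by the distance of their centre from the window's lower edge (horizontal axis). Points are libraries, with circles for replicate 1, triangles for replicate 2 and crosses for lists without the site. Of the NOTCH2 sites, 1 has no UT point and the other has both RA points above its only UT point. In the MAML3 window a UT library is the highest point in 3 of 6 sites.

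MAML2, a paralogue of MAML3, held a single MAML3 peak. It lay at chr11:95807867-95808216 in RA replicate 1, at percentile 39.0, and no RARα list held a peak in the window. Of 6236 stretches of this length 54.6% held at least 1 MAML3 site. A peak of MAML3 RA replicate 2 lay 2.59 kb below the lower edge of the window, at chr11:95657163-95657412 (percentile 17.8), and no other MAML3 list held a peak within 274 kb of that edge on that side.

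RBPJ, the DNA-binding partner of the Notch complex, had no peak in its 390 kb window in any list, but a MAML3 site lay just outside. The 4 MAML3 lists held a peak 11.2 to 11.4 kb below the lower edge, at chr4:26088312-26088761 and chr4:26088200-26088699 with RA and at chr4:26088150-26088599 and chr4:26088249-26088698 in UT. Their percentiles were 65.7 and 73.7 with RA and 72.9 and 73.0 in UT, and those of the treatments overlapped. RARα UT replicate 1 held a weak peak there too, at percentile 7.91, and the nearest RARα peaks below the window in the other 3 lists were 4334 kb or more away. On the upper side the nearest peak of any list was 1957 kb away. RBPJ lies on the plus strand in RefSeq, so this site is on the side of its starts, and the next coding gene on that side is SMIM20, which encodes a small mitochondrial membrane protein.

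RefSeq gives 5 promoters for RBPJ. Of these, 1 held the RBPJ core on both strands, and it is shown because the factor's own motif stands in it while no list had a peak in the window. The capitals mark GTGGGAA, whose first bases lie 115 bases (as TTCCCAC, the other strand) and 73 bases before the start, in the 250 bases before it (GRCh38.p14, plus strand).
RBPJ promoter: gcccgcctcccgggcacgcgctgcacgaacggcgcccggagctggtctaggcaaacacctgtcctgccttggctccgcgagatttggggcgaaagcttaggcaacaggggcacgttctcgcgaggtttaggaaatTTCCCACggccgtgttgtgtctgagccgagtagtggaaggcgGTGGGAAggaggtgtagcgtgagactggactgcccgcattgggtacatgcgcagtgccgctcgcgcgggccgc
A pair of matches or more was found in 61 of the 35116 promoters (0.174%). None of the other 9 promoters of the members held GTGGGAA, and none of the 10 held AGGTCA. A match is a run of letters and not a measured site, and its position on hg19 was not determined.

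MAML1, the best studied Mastermind coactivator, and NOTCH1, the receptor most often linked to the pathway in cancer, were without peaks in all 8 lists. The nearest peaks to the MAML1 window lay 194 to 246 kb below it, among them chr5:178916049-178916298 and chr5:178915849-178916298 in the MAML3 lists with RA (percentiles 8.86 and 56.6). The peaks nearest below the NOTCH1 window were 1786 kb or more away, and above it only RARα RA replicate 1 held a peak, 291 kb away. Peaks are numbered in each list and some numbers are not listed. Between the peaks on either side of an empty window no number was missing in the 3 lists with a peak on both sides of MAML1, in the 1 such list of NOTCH1 and in 7 of the 8 lists of RBPJ. In the MAML3 window 3 of 8 lists lacked no number, and in the NOTCH2 window, whose flanking peaks were 2497 kb or more away, 1 of 8. The absent peaks there were not analysed here, and up to 2 numbers in MAML3 and 5 in NOTCH2 were missing from a list.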

How the data were processed

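Reads were aligned and peaks called by the authors. BWA 0.5.9, MACS, bedtools and the hg19 build are named in the submitters' processing notes, without roles or settings. Each of 8 immunoprecipitates has its own list of chromosome, start, end, peak name and a score that the authors deposited, with no normalization stated. Positions are printed counting from 1. Windows came from the rule for the 6 genes. The members, rules and alternatives were chosen with earlier results of these data known.

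Python 3.11.15, NumPy 2.4.6 and SciPy 1.17.1 were used. Peaks in a window were counted per 1000 listed peaks and per Mb of listed range. Merging was tested on simulated data in which sites lay far apart and the peaks of a site always overlapped. Split or chained peaks were not simulated. The exact permutation test over libraries was run on the MAML3 window alone. Sites named by rule were those in all 4 MAML3 lists, gained or lost, RARα sites in 2 or more lists, and the highest ranked of each antibody and window. The others are given so that each peak is accounted for, and peaks outside the windows were chosen after their values were seen. The planned list of further Notch pathway genes was not run, since an hg19 annotation was not used here. Alternatives changed overlap, threshold, list length, window edges and libraries.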

Additional observations from a re-analysis of the deposited data

How the results depend on the processing

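The difference between antibodies at the MAML3 window, MAML3 minus RARα, was 0.0647 peaks per 1000 listed and ranged from -0.294 to 0.333 when 1 library was left out. The exact permutation p was 0.0286 with lists cut to equal length within each antibody (difference 1.13) and with peaks not divided by list length (5 peaks), but list length sets both values. In the first the RARα lists had 251 peaks, where the MAML3 rate would give 0.282 peaks, and in the other each MAML3 list was the longer. With all lists cut to 1064 peaks and the shortest omitted (chosen after seeing the data), the difference was -0.392 (exact permutation p = 0.743). With the 50% of peaks of highest score it was 0.648 (exact permutation p = 0.143). With replicate numbers as a block it was the same 0.0647 (exact permutation within 4 pairs, p = 0.875, smallest possible 0.125), and no label says that a number marks a shared culture.

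With the 50% of peaks of highest score the windows held 7 MAML3 sites (16 in the full lists), 1 in all 4 lists (2), 2 RARα sites (5) and 2 shared sites (4). At equal length they held 5 MAML3 sites, 2 of them gained (1 in the full lists), 1 RARα site and 1 shared site. Windows narrowed by 50 kb held 14 MAML3 sites, and no site was gained (0). Windows widened by 50 kb held 18 MAML3 sites, 1 of them gained and 3 in all 4 lists, with 6 RARα sites and 5 shared sites. Leaving out 1 library gave 13 to 16 MAML3 sites, 1 to 5 gained, 0 to 2 lost, 2 to 6 in all lists, 4 to 5 RARα sites and 3 to 4 shared sites. An overlap of 50% of the shorter peak or a gap of 1 kb changed none of these counts. Apart from the gained sites at equal length, shares over all sites are not given for lists cut or left out. Those counts therefore describe the windows alone. The unknown depth limits each absence.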
